A study of Homo sapiens with 8 samples.

Results

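The MYC, MAX and MXD network is a group of transcription factors that pair through a shared helix-loop-helix and leucine zipper fold and compete for the same DNA sites. The members taken here were MYC, MYCN, MAX, MXD1, MXD3, MXD4, MXI1, MNT and MLX, and every probe set that the platform annotation gives to a single one of these symbols was used. This gave 29 probe sets of 8 of the 9 listed genes, among 19775 genes measured in all. MXD4, a repressor of the MXD group, was not analysed here, because its 3 probe sets carry several gene symbols.

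The cells were CCRF-CEM-C7-14, a glucocorticoid-sensitive clone of a human line from T-cell acute lymphoblastic leukaemia. All cells were moved to medium with hormone-stripped serum. The 3 untreated arrays (0 h) received no dexamethasone, and 1 µM dexamethasone, a synthetic glucocorticoid, was given for 2 h to the cells of 3 arrays and for 10 h to those of 2 arrays. The arrays are labelled as biological replicates and nothing more is said of their cultures, so the p-values measure only the spread between these samples. Cells kept in stripped medium for 2 h or 10 h without hormone were not analysed here, and the effect of dexamethasone and that of the time in this medium cannot be told apart.

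Values are log2 expression per probe set, so a difference of 1 is a doubling. Probe sets differ in how well they bind their targets, and levels are therefore compared between times within a gene and not between genes. The highest of 27 bacterial negative control probe sets read 4.73, and values below it are treated as background. Of 12 T-lineage markers, 11 had a mean above that value, among them CD3D, CD7 and PTCRA, whereas CD2 was at 4.72. The summed level of the T-lineage list was 14.1 to 14.3 at 0 h, 14.0 to 14.3 at 2 h and 14.3 on both 10 h arrays. For B cell markers 4 of 5 measured genes were above background, namely CD79A, CD79B, PAX5 and CD22, and the summed level was 8.96 to 9.25 at 0 h, 9.04 to 9.42 at 2 h and 9.47 to 9.59 at 10 h. For natural killer cells the count was 2 of 5 and the sum was 7.79 to 8.12, 8.09 to 8.15 and 8.17 to 8.33 in turn. Myeloid, erythroid and epithelial or stromal lists had 2 of 6, 2 of 3 and 5 of 7 genes above background. The part of these markers and of RNA quality in the results was not tested. The difference between 3′ and 5′ actin probe sets, a sign of RNA integrity, averaged 0.52 ± 0.18 on the untreated arrays, 0.51 ± 0.11 after 2 h and 0.33 ± 0.05 after 10 h, with SD over 3, 3 and 2 arrays (exact permutation p = 0.318 over 560 assignments, adjusted p = 0.529 over 2 controls). For GAPDH the exact permutation p was 0.529.

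Array medians ran from 4.68 to 5.01, and 3 arrays had the lowest medians and stood apart from the other 5: replicate 2 at 0 h, replicate 3 at 2 h and replicate 1 at 10 h. This set holds 1 array of each time. For the members, and for the called genes of the lists below, the difference at 10 h is also given within the set of 3 and within the other 5.

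MYC and its relative MYCN are activators that bind DNA only when paired with MAX. Their dimers occupy the E-box, a short palindrome near the start of genes for ribosome production, metabolism and cell cycle entry. MXD1, MXI1, MXD3, MXD4 and MNT also pair with MAX and bind the same box, but bring in corepressors, so that the balance of partners sets the output. MLX is a second hub that pairs with some of these repressors and with the glucose-sensing factors MLXIP and MLXIPL. In T-cell leukaemia MYC is a well-known direct target of NOTCH1 and drives growth.

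Promoter sequences from RefSeq (build GRCh38.p14) were searched for sites through which the network and its surroundings are known to be read. The windows hold the 250 bases before each gene's start and were matched for 8 of the 9 listed genes, in 11 windows; MYC had no entry. The motifs, on both strands, were the E-box CACGTG and the E2F site TTTGGCGC or TTTCGCGC, which is bound by factors of cell cycle entry. The E-box was present in the windows of MXD4, MNT and MLX, against 6.34% of all 35116 windows. The MYCN window held a pair of overlapping E2F sites, a motif present in 0.968% of all windows. A match is a description of these letters and not a measured binding site, and a motif that is missing says only that these letters are not in the window. The 4 windows below, 5′ to 3′ with motifs in capitals, are the MNT and MLX windows with the E-box that MYC dimers read, the MYCN window with its E2F sites, and the first of 3 MXI1 windows, shown for the repressor whose values followed MYC most closely. The E-box starts 193 bases before the start of MNT (chr17:2401061-2401310, minus strand) and 50 bases before that of MLX (chr17:42566850-42567099, plus strand). The E2F matches of MYCN start 176 and 172 bases before its start (chr2:15940300-15940549, plus strand). The MXI1 window (chr10:110207355-110207604, plus strand) held neither motif.
MNT: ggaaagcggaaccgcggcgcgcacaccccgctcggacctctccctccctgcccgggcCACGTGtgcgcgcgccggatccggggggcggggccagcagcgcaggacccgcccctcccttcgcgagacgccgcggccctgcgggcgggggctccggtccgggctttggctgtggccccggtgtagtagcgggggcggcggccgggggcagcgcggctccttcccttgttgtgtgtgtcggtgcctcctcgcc
MLX: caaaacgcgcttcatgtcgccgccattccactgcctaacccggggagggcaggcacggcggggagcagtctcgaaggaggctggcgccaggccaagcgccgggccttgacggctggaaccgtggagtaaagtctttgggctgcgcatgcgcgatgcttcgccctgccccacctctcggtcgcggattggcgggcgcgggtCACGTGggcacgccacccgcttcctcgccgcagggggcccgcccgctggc
MYCN: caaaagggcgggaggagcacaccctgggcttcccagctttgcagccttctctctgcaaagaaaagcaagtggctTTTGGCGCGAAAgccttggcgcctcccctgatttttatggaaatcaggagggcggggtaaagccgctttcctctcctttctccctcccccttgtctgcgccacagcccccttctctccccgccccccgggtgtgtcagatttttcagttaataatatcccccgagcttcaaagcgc
MXI1: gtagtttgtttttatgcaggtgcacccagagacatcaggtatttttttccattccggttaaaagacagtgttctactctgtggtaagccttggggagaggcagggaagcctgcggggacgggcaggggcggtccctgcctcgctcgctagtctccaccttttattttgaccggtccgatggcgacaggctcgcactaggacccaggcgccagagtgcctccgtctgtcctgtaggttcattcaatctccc

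MYC was the one member that passed the test at 10 h. Its log2 values were 11.41, 11.18 and 11.16 on the untreated arrays, 11.28, 11.22 and 10.90 after 2 h, and 10.14 and 10.35 after 10 h. Both 10 h arrays lay below all 6 earlier arrays, and the values at 0 h and 2 h overlapped. In bulk RNA a lower level can come from less RNA per cell or from fewer cells that hold it, and these cannot be told apart. From 0 h to 10 h MYC fell 2.01-fold, with a 95% interval of 1.50 to 2.69 (log2 fold change −1.01, SE 0.20, limma adjusted p = 0.030). It was the 6th lowest log2 fold change of 19775 genes. At 2 h the log2 difference from untreated cells was −0.12 (95% interval −0.49 to 0.26, adjusted p = 1). Between 2 h and 10 h it was −0.89 (SE 0.20), which is 1.85-fold lower, but with an adjusted p of 0.152 this interval missed the threshold. The moderated F test for a change at any time also missed it (adjusted p = 0.0708, with 0.283% of genes called).

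Several limits touch the call for MYC. It rests on a single probe set. That probe set carries a suffix of the kind treated below as marking possible cross-hybridization, and MYC has none without it. With p-values adjusted over all 54613 probe sets in place of genes the limma adjusted p was 0.0569, with 145 probe sets at a lower p. Leaving out single arrays gave an adjusted p of 0.189 without 0 h replicate 1, 0.0527 without 0 h replicate 2, 0.0547 without 2 h replicate 2, 0.575 without 10 h replicate 1 and 0.213 without 10 h replicate 2. The log2 fold change lay between −1.12 and −0.90 over 21 alternatives, though the choice of probe set, variance model or adjustment cannot change it. It was −1.04 within the 3 arrays of lowest median and −0.94 within the other 5. The call was lost when only those 5 arrays were fitted.

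**Figure D1:**
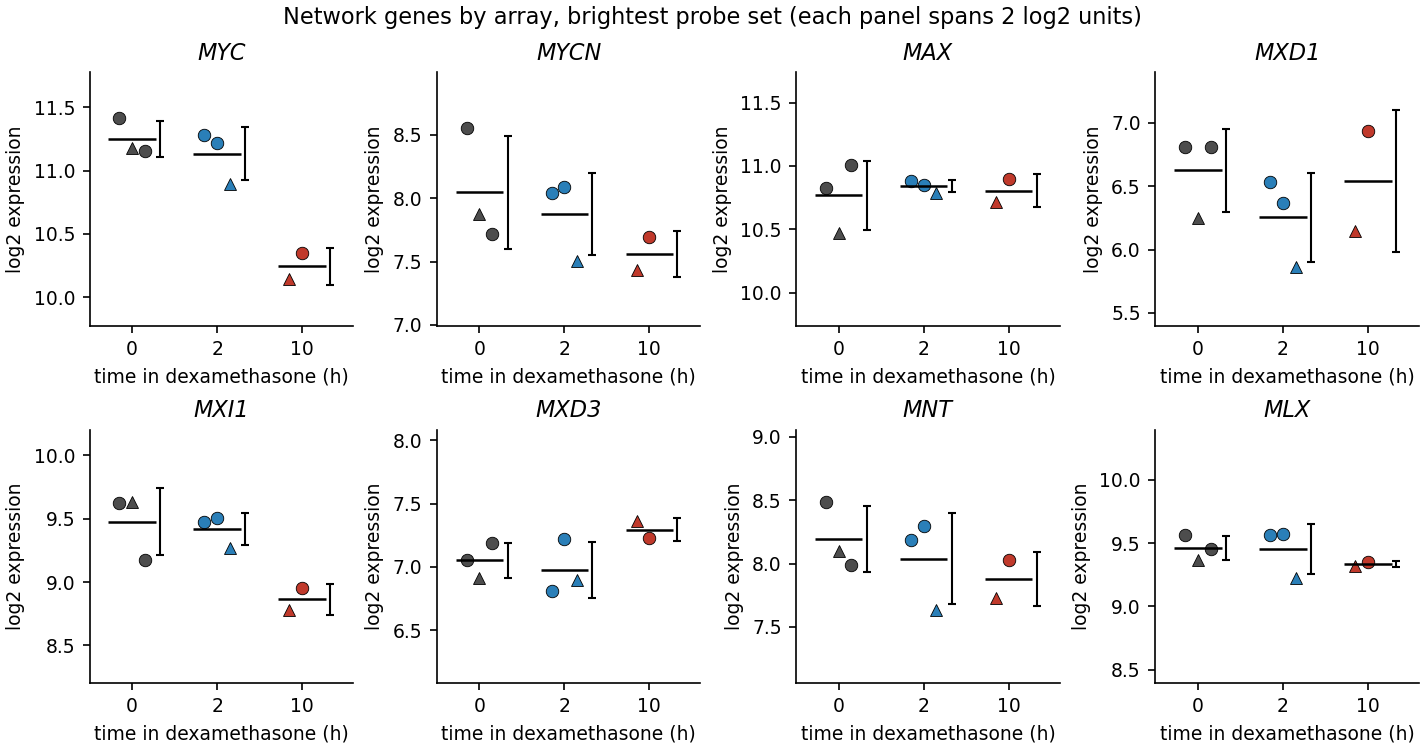
Log2 expression (vertical axis) of the 8 measured members on each array at 0, 2 and 10 h (horizontal axis), with 1 panel per gene. Triangles are the 3 arrays of lowest median, circles the other 5, and bars give the mean with SD as error bars. MYC and MXI1 have both 10 h arrays below all earlier arrays, and MXD3 has both above.

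Among all genes, both 10 h arrays lay below the 6 earlier arrays for 3.12% and above them for 2.74%. In the network this held below for MYC and MXI1 and above for MXD3. Taking 10 h against 0 h alone, 4 members were lower without overlap (MYC, MYCN, MXI1 and MLX) and 1 was higher (MXD3), where 6.51% and 6.56% of all genes were. By adjusted p, 1 of the 8 members was lower and 0 were higher, where 0.0202% and 0.334% of all genes were called. Negative differences were found for 6 of 8 members, beside 55.4% of all genes, and the median over members was −0.22 beside −0.02. At an unadjusted p below 0.05 there were 2 members, MYC and MXI1, where 3.44% of genes passed.

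MYCN, the neural relative of MYC, read 8.56, 7.87 and 7.72 at 0 h. Its values were 8.04, 8.09 and 7.50 at 2 h and 7.43 and 7.69 at 10 h. The 10 h arrays lay just below the lowest untreated array, but 2 h replicate 3 was among them, and the untreated arrays themselves spread over more than the difference between the means. The log2 difference at 10 h was −0.49 (SE 0.25, 95% interval −1.02 to 0.05, adjusted p = 1). It was −0.23 without 0 h replicate 1, and −0.44 and −0.45 within the 3 arrays of lowest median and the other 5. MYCN has 10 probe sets, of which 3 had means above background. At 10 h the differences of these 3 ran from −0.49 to 0.12, so the probe sets did not share a direction, and the 7 dim ones add no level that can be read. The adjusted p of the MYCN probe sets was 1 in every comparison.

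MAX, the partner that MYC and the repressors share, had values of 10.82, 10.47 and 11.00 at 0 h. After 2 h it read 10.88, 10.85 and 10.79, and after 10 h 10.71 and 10.90. The 3 times overlapped. The log2 difference from untreated cells was 0.07 (SE 0.18) at 2 h and 0.04 (95% interval −0.39 to 0.46, adjusted p = 1) at 10 h, the latter 0.24 and −0.02 within the array sets of 3 and 5. All 5 MAX probe sets were above background, and their differences at 10 h ran from −0.25 to 0.39, with 2 of 5 negative. The lowest value of −0.25 came from a probe set whose 10 h arrays themselves read 5.32 and 6.15. The pair at the other end gave 0.39 and 0.37. All MAX probe sets but the one at −0.25 carry a suffix that marks possible cross-hybridization, also the one read for the gene. No MAX probe set passed the test in any comparison.

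MXI1, a repressor of the MXD group that competes with MYC for MAX, had no called difference but tracked MYC across arrays. Its values were 9.63, 9.63 and 9.18 at 0 h, 9.47, 9.51 and 9.27 at 2 h, and 8.78 and 8.95 at 10 h. The 10 h arrays lay below all 6 earlier ones. The log2 difference at 10 h was −0.61 (SE 0.20, 95% interval −1.04 to −0.18), or 1.53-fold lower, with a p of 0.00802 before adjustment and 0.702 after adjustment in limma over all genes. Against 2 h it was −0.55 (95% interval −0.98 to −0.12, adjusted p = 1). At 2 h against 0 h it was −0.06 (SE 0.18). It was −0.85 within the 3 arrays of lowest median and −0.45 within the other 5. MXI1 has 1 probe set, so no second measure of it is at hand.

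MXD3, a repressor of the same group linked to proliferating cells, had the opposite order. It read 7.05, 6.91 and 7.19 at 0 h, 6.81, 7.22 and 6.89 at 2 h, and 7.36 and 7.23 at 10 h. The lower 10 h array exceeded the highest earlier array by less than the SD within any time. The log2 difference was 0.24 (95% interval −0.18 to 0.66, adjusted p = 1) against 0 h and 0.32 (95% interval −0.10 to 0.74, adjusted p = 1) against 2 h. Within the array sets the 10 h difference from untreated cells was 0.45 and 0.11.

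MXD1, a MAX-binding repressor known to rise as myeloid cells mature, showed no called difference. It read 6.81, 6.25 and 6.81 at 0 h, 6.54, 6.37 and 5.86 at 2 h, and 6.14 and 6.94 at 10 h. The 2 arrays at 10 h lay on either side of most of the others. Its difference at 2 h, −0.37 (95% interval −0.87 to 0.13, adjusted p = 1), was the lowest of the 8 members at that time. At 10 h it was −0.08 (95% interval −0.65 to 0.48), with −0.11 within the 3 arrays of lowest median and 0.12 within the other 5. The 2 MXD1 probe sets above background gave −0.17 and −0.08 at 10 h.

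MNT, a widely expressed MAX-binding repressor, had 8.49, 8.10 and 7.99 at 0 h, 8.19, 8.30 and 7.63 at 2 h and 7.73 and 8.03 at 10 h. The times overlapped, and the log2 difference at 10 h was −0.31 (95% interval −0.80 to 0.18, adjusted p = 1), with −0.37 and −0.21 within the array sets of 3 and 5. MLX, the hub of the parallel network, had 9.56, 9.37 and 9.45 at 0 h, 9.56, 9.57 and 9.22 at 2 h and 9.32 and 9.35 at 10 h. Its 10 h arrays lay below the lowest untreated array by less than the spread of the untreated arrays, and 2 h replicate 3 was lower still. The log2 difference was −0.13 (95% interval −0.54 to 0.28, adjusted p = 1), with −0.05 and −0.16 within the array sets, and the 6 MLX probe sets, all above background, ran from −0.17 to 0.11. MNT and MLX, whose promoter windows carry the E-box shown above, had no difference past the threshold.

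**Figure D2:**
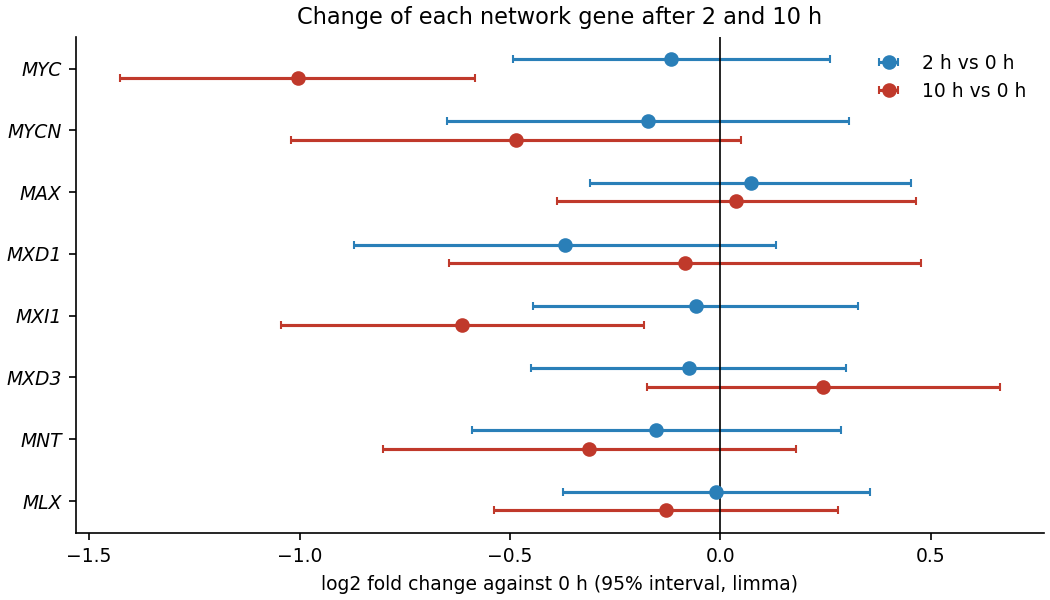
Log2 fold change of each measured member (horizontal axis) at 2 h (blue) and 10 h (red) relative to untreated cells, as points with 95% intervals from limma. The interval of MYC at 10 h against 0 h runs from −1.43 to −0.58, that of MXI1 from −1.04 to −0.18, and those of the other 6 members include 0.

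At 2 h 0 of 8 members were called, where limma called 0.0202% of all genes, 4 genes. At an unadjusted p below 0.05 there were also 0 members (0.946% of genes), and no member separated the 2 h from the 0 h arrays without overlap (4.04% of genes). By contrast TSC22D3, a classical glucocorticoid target named here after its values were seen, read 5.61, 5.51 and 5.80 at 0 h and 8.64, 8.50 and 8.11 at 2 h (log2 fold change 2.78, limma adjusted p = 1.35e-06). Its other probe sets gave 0.62, and −0.11 for one below background, neither of them called at 2 h. The 2 h differences of the members ran from −0.37 for MXD1 to 0.07 for MAX, and 7 of 8 were negative where 44.3% of genes were. On 2 h replicate 3, an array of the set with lowest medians, 7 of the 8 members, all but MXD3, had their lowest value among the 2 h arrays. The median of that array was 4.68, beside 4.93 and 4.94 on replicates 1 and 2. The share of all genes that were lowest there was not counted. Between 2 h and 10 h 0 of 8 members were called (0.167% of genes), and 2, MYC and MXI1, had an unadjusted p below 0.05 in limma (3.15% of genes). MYC and MXI1 were lower and MXD3 higher without overlap, where 9.29% and 5.43% of genes were. The comparisons share arrays, the 0 h ones between both treated times, so their values are not independent of each other.

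By probe set, 0 of 29 were called in any comparison, where 0.00916% of all probe sets were called at 2 h and 0.251% at 10 h relative to untreated cells, and 0.108% between the treated times. At an unadjusted p below 0.05 in limma the count was 0 at 2 h, 2 at 10 h (2.68% of all probe sets) and 2 between the treated times (2.53%), those of MYC and MXI1. At 10 h against 0 h 18 of 29 were negative, against 56.3% of all probe sets. Of the 29, 20 had a mean above the highest negative control. Probe sets of the same gene share the transcript and the arrays and are not replicates of the condition.

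**Figure D3:**
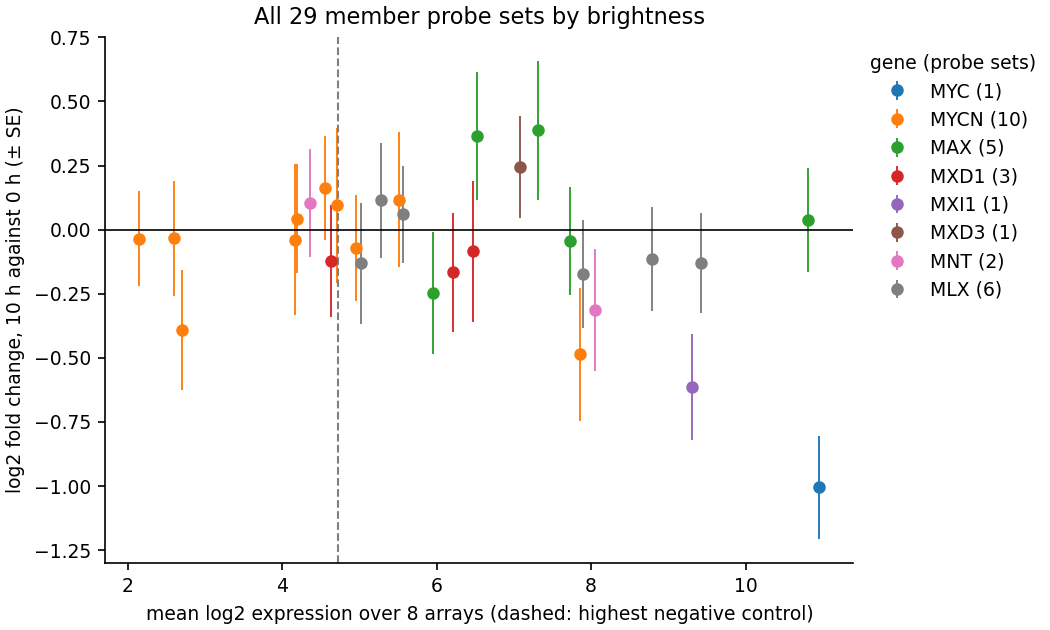
Log2 fold change at 10 h against 0 h with its SE (vertical axis) of all 29 member probe sets against their mean log2 expression over 8 arrays (horizontal axis). The dashed line is the highest negative control at 4.73. MYC at −1.01 and MXI1 at −0.61 are the lowest 2 of the 29.

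Because the repressors and MYC share MAX, the change of MYC was set against that of every other measured member on the same arrays. MYCN, a relative, and MLX, the hub of the parallel network, were included. The difference between the log2 values of MYC and MAX was 0.48 ± 0.29 on the 3 untreated arrays and −0.56 ± 0.02 (both SD) on the 2 arrays of 10 h, so MYC moved by −1.04 relative to MAX. These are differences between probe sets, and it is their change between times and not their sign that can be read. Relative to MXD3 the shift was −1.25, to MXD1 −0.92, to MLX −0.88 and to MNT −0.69. Each of these 5 shifts had an exact two-sided permutation p of 0.1, the smallest that 3 arrays against 2 allow, and an adjusted p of 0.14 over 7 pairs. This exact test therefore cannot reach 0.05 for a pair, whatever its shift. The shift was −0.52 relative to MYCN and −0.39 relative to MXI1, both with an exact permutation p of 0.2. In all 7 pairs the 10 h arrays did not overlap the untreated ones. Every pair contains the same MYC values, which did not overlap either, so these are not 7 separate results. The share of such pairs over all genes was not counted.

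Over the 8 arrays the Pearson correlation with MYC was 0.922 for MXI1, 0.745 for MYCN, 0.668 for MLX and 0.663 for MNT. It was 0.155 for MXD1, 0.0614 for MAX and −0.609 for MXD3. These points share the 3 times and the array sets, so the values describe the pattern and carry no test. The correlation with the array median was 0.823 for MAX, 0.812 for MXD1 and 0.718 for MLX, while it was 0.256 for MYC and −0.00245 for MXI1. The values of MAX, MXD1 and MLX were thus more closely tied to the overall brightness of the array than those of MYC and MXI1.

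**Figure D4:**
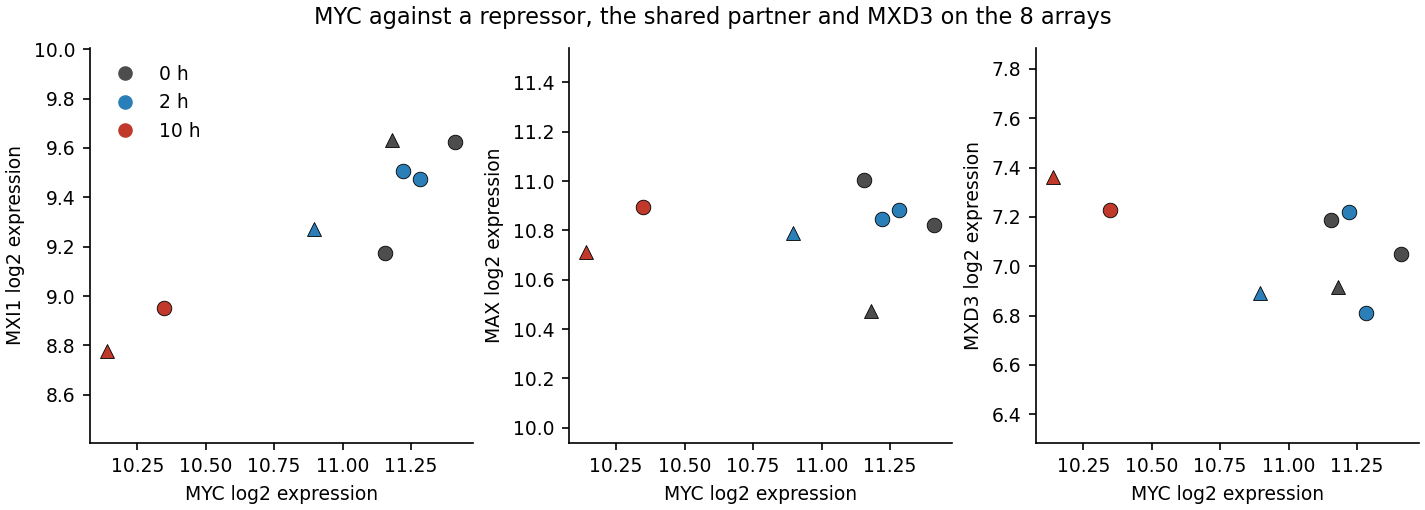
Log2 expression of MXI1, MAX and MXD3 (vertical axes) against that of MYC (horizontal axes) on the 8 arrays, coloured by time, with triangles for the 3 arrays of lowest median. The 10 h arrays are at the low end of MYC, at the low end of MXI1 (8.78 and 8.95), inside the range of MAX (10.71 and 10.90) and at the high end of MXD3 (7.36 and 7.23).

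Outside the network, the genes whose log2 values most resembled MYC over the 8 arrays were sought among 7994 genes above background with an SD of at least 0.2. They were MAT2A, which makes S-adenosylmethionine, with r = 0.964, the transporter SLC16A9 (0.964), LYSMD2 (0.962), ENDOD1 (0.960) and HYAL2 (0.960). None of these 5 was called at 10 h in limma: the log2 difference was −0.50 for MAT2A (adjusted p = 1), −0.96 for SLC16A9 (0.0778), −0.70 for LYSMD2 (0.346), −1.11 for ENDOD1 (0.109) and −0.44 for HYAL2 (1). SLC16A9 was called in 6 of 20 alternatives and ENDOD1 in 7 of 20, with the lowest adjusted p of 0.00125 and 0.00118 under array weights. MAT2A read 9.37, 9.38 and 9.27 at 0 h, 9.35, 9.38 and 9.11 at 2 h and 8.70 and 8.98 at 10 h, the same order of times as MYC. The most opposite genes were SNTB2 (r = −0.948), CORO1C (−0.946), SAP30 (−0.941), SRGN (−0.940) and LINC01120 (−0.940). Of these, the actin regulator CORO1C rose by 1.29 (SE 0.21, limma adjusted p = 0.0046) and LINC01120, a long non-coding RNA, by 3.11 (SE 0.26, adjusted p = 4.19e-06), or by 1.598 with the mean of its probe sets. The CORO1C call was lost without 10 h replicate 1 and without the 3 arrays of lowest median, with adjusted p-values up to 0.235. Likeness over 8 arrays in 3 groups picks genes that separate the 10 h arrays, and says nothing of shared control.

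The wider network was described with 8 gene lists of 170 entries. The rest of the pairing network comprised MYCL, a relative of MYC, the dual-specificity factor MGA, and MLXIP and MLXIPL, the partners of MLX. Their log2 differences at 10 h were 0.09, 0.01, 0.03 and −0.09, and 0 of 4 passed in limma, also at an unadjusted p below 0.05.

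Of 25 measured cofactors of MYC and enzymes of its turnover, 1 was called higher and 0 lower at 10 h (0.334% and 0.0202% of all genes), with 12 negative and a median of 0.00. The called gene was PIM2, a kinase that stabilises MYC protein. It read 6.13, 5.63 and 5.74 at 0 h, 6.11, 5.87 and 5.48 at 2 h, and 6.97 and 6.86 at 10 h. Both 10 h arrays lay above all others, and PIM2 rose by 1.08 (SE 0.22, limma adjusted p = 0.0419). It has 1 probe set, which was not called when adjusted over all probe sets (limma adjusted p = 0.082). The PIM2 call did not survive leaving out either 10 h array, the 2nd or 3rd untreated array, the 2nd array at 2 h, or the 3 arrays of lowest median, with adjusted p-values up to 0.535. Its difference was 1.34 and 0.93 within the array sets of 3 and 5. FBXW7, the ubiquitin ligase that marks MYC and NOTCH1 for degradation, had a difference of 0.03 (SE 0.22).

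Among 21 measured genes listed around the control of MYC in T cells, 1 rose and 1 fell (0.334% and 0.0202% of all genes), with a median of −0.01. The gene that fell, HES1, is a Notch target as MYC is and is not read here as a regulator upstream of MYC. HES1, a repressor induced by Notch, read 7.67, 7.81 and 7.65 at 0 h, 7.30, 7.20 and 7.52 at 2 h and 5.95 and 6.64 at 10 h. The arrays of each time lay below those of the time before. At 2 h the log2 difference was −0.37 (SE 0.20, adjusted p = 1), and at 10 h HES1 fell 2.67-fold (log2 fold change −1.42, SE 0.22, limma adjusted p = 0.00303). HES1 has 3 probe sets, of which 2 passed the test on probe sets, and both carry the suffix that marks possible cross-hybridization. The other one, without the suffix and close to background with a mean of 4.77, gave −0.37. With that probe set read for the gene, HES1 was not called. Within the array sets of 3 and 5 the HES1 difference was −1.86 and −1.02, and its call was also lost without 10 h replicate 1 and without the 3 arrays of lowest median. NOTCH1, the receptor upstream of both HES1 and MYC, read 9.56, 9.69 and 9.27 at 0 h, 9.44, 9.59 and 9.31 at 2 h and 8.56 and 9.07 at 10 h. Its 10 h arrays were the lowest, by a log2 difference of −0.69 (SE 0.21, adjusted p = 0.503), short of the threshold, with −1.13 within the 3 arrays of lowest median and −0.35 within the other 5. NR3C1, which encodes the glucocorticoid receptor, rose at 10 h by 1.49 (SE 0.23, adjusted p = 0.00365), with 1.64 and 1.46 within the array sets, and lost its call without either 10 h array or the 3 arrays of lowest median. PVT1, the non-coding neighbour of MYC, was below background at a mean of 4.29.

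Genes that MYC is known to raise were read in 3 groups, and in none of them did any gene pass the limma test at 10 h. At an unadjusted p below 0.05 there were 2 lower genes of 26 in the nucleolar group, 4 of 34 in the metabolic group and 1 of 17 in the cell cycle group, with 0, 0 and 1 higher, where 3.44% of all genes passed in either direction. The individual genes named in this and the following paragraph, other than NCL, ODC1, LDHA, CCND2, CDK4, CDKN1A, CDKN1B, TXNIP and ARRDC4, were picked after their values were seen, as ends of their lists. For nucleolar and ribosome biogenesis genes 24 of 26 measured genes were negative, where 55.4% of all genes were, with a median of −0.18 beside −0.02 over all genes. The range ran from −0.52 for POLR1B, a subunit of RNA polymerase I, to 0.03, and NCL, the nucleolar protein nucleolin, was at −0.13 (SE 0.19). For 5 of the 26 nucleolar genes the 10 h arrays lay below all untreated ones and for 0 above, beside 6.51% and 6.56% of all genes. At 2 h 5 of these 26 were negative, where 44.3% of all genes were, with a median of 0.10. That 2 h median had no settled sign, at −0.14 within the 3 arrays of lowest median and 0.17 within the other 5. The 10 h median was −0.29 within the 3 arrays of lowest median and −0.07 within the other 5.

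For genes of metabolism, translation and growth 24 of 34 were negative (55.4% of all genes), with a median of −0.14 (−0.17 and −0.07 within the array sets). In 9 of the 34 the 10 h arrays lay below all untreated ones and in 0 above, beside 6.51% and 6.56% of all genes. PPAT, which starts purine synthesis, was lowest at −0.71 (SE 0.22, adjusted p = 0.567), and SLC7A5, an amino acid transporter, was highest at 0.38. ODC1, the enzyme that opens polyamine synthesis and a classical E-box target, read 12.29, 12.01 and 12.06 at 0 h and 11.46 and 11.80 at 10 h, a log2 difference of −0.49 (SE 0.20, adjusted p = 1). Lactate dehydrogenase LDHA was at −0.14 (SE 0.18). For cell cycle genes 14 of 17 were negative (55.4% of all genes), with a median of −0.10 (−0.12 and −0.09 within the array sets). They ran from −0.56 for CDC25A, a phosphatase that activates cyclin-dependent kinases, to 0.52. In 4 of the 17 the 10 h arrays lay below all untreated ones and in 1 above. CCND2 and CDK4 gave −0.19 and −0.10. Single arrays moved the medians of these 3 groups by a large part of their size. Without 10 h replicate 1 they were −0.042, −0.040 and −0.030 for the nucleolar, metabolic and cell cycle genes, and without 0 h replicate 1 −0.11, −0.088 and −0.063. Without 10 h replicate 2 the nucleolar and cell cycle medians were −0.33 and −0.17. The nucleolar median was −0.27 without 0 h replicate 3, and the cell cycle median −0.18 without 0 h replicate 2. Genes that MYC is known to lower had 9 of 17 negative values and a median of −0.02, with 0 called in limma and 1 at an unadjusted p below 0.05. That gene was the receptor TGFBR2, highest at 1.03 (SE 0.25, adjusted p = 0.154), and the cell cycle inhibitors CDKN1A and CDKN1B gave 0.06 (SE 0.19) and 0.27 (SE 0.20). In 1 of the 17 genes that MYC is known to lower the 10 h arrays lay below all untreated ones and in 2 above. The median of this list was 0.00 with median centring and 0.04 without the 3 arrays of lowest median, so it had no settled sign.

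Genes raised by the MLX partners MLXIP and MLXIPL numbered 9, of which 1 was called higher and 0 lower (0.334% and 0.0202% of all genes), while 6 of 9 were negative and the median was −0.17. The called gene was TXNIP, an inhibitor of glucose uptake that is the best known target of MLXIP and MLX. It read 9.15, 8.65 and 8.74 at 0 h, 8.44, 9.05 and 8.85 at 2 h and 10.08 and 10.47 at 10 h. Both 10 h arrays exceeded all earlier ones, and TXNIP rose 2.69-fold against 0 h (log2 fold change 1.43, SE 0.23, limma adjusted p = 0.00448) and 2.82-fold against 2 h (adjusted p = 0.00569). All 3 of its probe sets were called, and its difference from 0 h was 1.44 and 1.52 within the array sets, although the gene's call was lost without 10 h replicate 2 and without the 3 arrays of lowest median. ARRDC4, its relative and another target of the same pair, was below background at a mean of 4.50, with a difference of 0.08. The kinase PFKFB3, which stimulates glycolysis, was lowest at −0.59 (SE 0.23, adjusted p = 1).

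**Figure D5:**
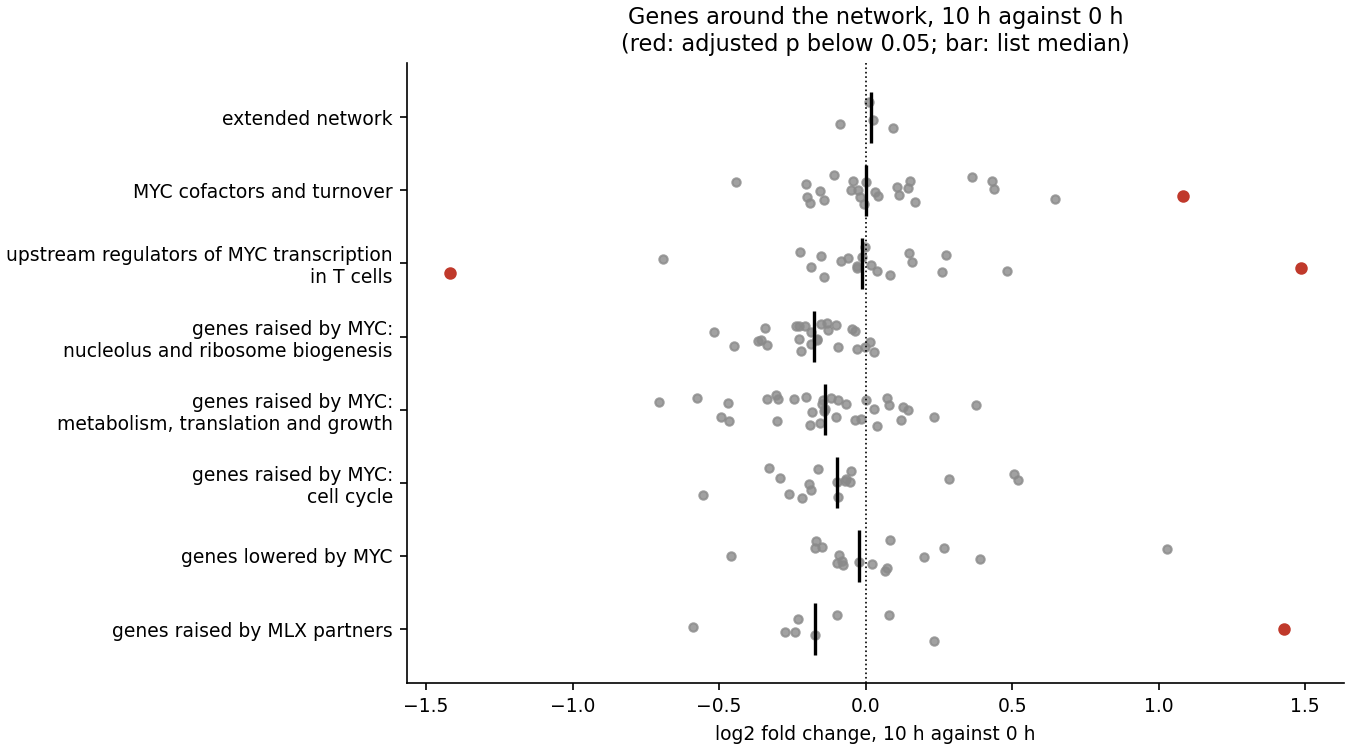
Log2 fold change at 10 h against 0 h (horizontal axis) of every measured gene of the 8 lists (vertical axis), with the list median as a bar and genes of adjusted p below 0.05 in red. PIM2, HES1, NR3C1 and TXNIP are the called genes, and the medians run from −0.18 for nucleolar genes to 0.02 for the rest of the pairing network.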

How the data were processed

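Total RNA was hybridised to 8 single-colour arrays of 54675 probe sets. The authors deposited 1 log2 value per probe set and array, made with RMA per the submitters' processing notes; its version, and whether all arrays were processed together, are not given in the sources used here. Gene symbols came from the platform annotation (41091 probe sets with 1 symbol, 1801 with several, which were left out), and each gene was read from its probe set with the highest mean over the 8 arrays, which left 19775 genes. The Entrez identifiers of all 8 measured members matched the RefSeq gene table. No pair of arrays shared more than 0.269% identical values, so none was taken for a copy.

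All arrays were fitted together with limma 3.58.1 in R 4.3.3 (a mean per time, 5 residual degrees of freedom), both on genes and on the 54613 probe sets that are not controls, and called at a two-sided Benjamini-Hochberg adjusted p below 0.05 over all features. Errors on fold changes are moderated standard errors. The fit was tested on simulated data. The number of arrays limits the precision.

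The members, the 8 gene lists, the marker lists and the set of 3 arrays of lowest median were chosen with earlier results of these data known. Named genes were the members, a panel of 16 genes, up to 4 called genes per list and comparison, and the 5 genes most and the 5 least correlated with MYC; others are said to be chosen after their values were seen. Replicate numbers were not taken as pairs: deviations of same-numbered arrays correlated at −0.268 to 0.264. Arrays of different numbers were not compared, so this does not settle whether the samples are paired. Alternatives covered the choice or mean of probe sets, a filter on dim values, median centring, quantile normalization, variance model, array weights, blocks, fewer arrays and adjustment over probe sets; for list medians they were added after seeing the data.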

Additional observations from a re-analysis of the deposited data

How the results depend on the processing

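The fall of MYC at 10 h kept its direction in all 21 alternatives and its call in 14. Because MYC has 1 probe set, many of these could not change its direction. They are the choices of probe set, the dim filter, the variance model, the adjustment and the omission of 2 h arrays. Without the 3 arrays of lowest median it was −0.94 (limma adjusted p = 0.349, 0 members called), and adjusted over all probe sets −1.01 (adjusted p = 0.0569). With single arrays left out it ran from −1.11 to −0.90, and the count of members called ran from 0 to 1 by gene at 10 h, by gene at any time and by probe set at 10 h. With the replicate number as a block MYC was −1.09 (adjusted p = 0.043) and 1 member was called, so the block changed no member's call, while PIM2 at 0.97 (adjusted p = 0.123) lost its call. Between 2 h and 10 h MYC passed the threshold with quantile normalization (−0.82, limma adjusted p = 0.0463), trended and robust variances (−0.89, adjusted p = 0.00209), array weights (−0.98, adjusted p = 0.0113) and a block for the 3 arrays (−0.85, adjusted p = 0.0468), so 1 member was called by gene there. The count was also 1 by probe set at 10 h against 2 h with trended and robust variances and with weights. At any time it was 1 with the mean of probe sets, median centring, quantile normalization, trended and robust variances, weights and the block for the 3 arrays. By probe set at 10 h against 0 h it was 1 with median centring, quantile normalization, trended and robust variances, weights, the dim filter and the block for the 3 arrays. These counts were 0 in the fit reported.

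Signs turned in 37 of 481 alternatives over members and in 20 of 538 over other named genes, in none of them for a called value. With probe sets free of a cross-hybridization suffix, MYCN was 0.22 at 2 h and 0.12 at 10 h, MLX 0.12 and 0.11, and MAX −0.25 at 10 h. These probe sets were dimmer, with means of 5.52 for MYCN, 5.28 for MLX and 5.95 for MAX. Those of the main fit had means of 7.86, 9.43 and 10.80 in turn. MLX at 2 h was 0.046 with the mean of probe sets and 0.0074 with median centring. MAX was −0.0075 at 10 h with weights, and 0.018 with quantile normalization, 0.011 with the replicate block and 0.0044 with the block for the 3 arrays at 10 h against 2 h. That block gave 0.021 for MXD1 at 10 h. MGA at 10 h was −0.15 with the mean of probe sets, −0.0047 with quantile normalization, −0.24 with weights and −0.068 with the replicate block, and MLXIP −0.21 and −0.020 with the latter pair. Without the 3 arrays of lowest median, values at 2 h were −0.049 for MAX, 0.091 for MXI1, 0.0057 for MNT and 0.059 for MLX; at 10 h they were −0.018 for MAX, 0.12 for MXD1, 0.0083 for PVT1 and 0.0063 for CDK4, and MAX against 2 h was 0.031.

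With single arrays left out, values at 2 h ran from −0.19 to 0.0018 for MYC, −0.34 to 0.081 for MYCN, −0.075 to 0.19 for MAX, −0.21 to 0.018 for MXI1, −0.20 to 0.0070 for MXD3, −0.28 to 0.051 for MNT and −0.069 to 0.11 for MLX. At 10 h they ran from −0.11 to 0.16 for MAX, −0.48 to 0.31 for MXD1, −0.27 to 0.33 for FBXW7, −0.32 to 0.34 for MGA, −0.14 to 0.19 for MLXIP, −0.35 to 0.035 for CCND2, −0.39 to 0.082 for PVT1, −0.22 to 0.021 for CDK4 and −0.25 to 0.41 for ARRDC4. Against 2 h they ran from −0.13 to 0.056 for MAX and −0.11 to 0.68 for MXD1. The causes of these shifts were not tested. Of the 29 probe sets, 9 lay at background, so their differences say little.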
